A study of Mus musculus with 16 samples.

Results

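The 36 genes described here drive or mark cell division. They comprise 23 mitotic genes, whose products build the spindle, check chromosome attachment or carry out cytokinesis, and 13 replication genes, which act at the start of DNA synthesis or supply it. The members come from a fixed list of symbols. Their probes were found through the accession of each array probe. All 36 were on the array, among 20280 named symbols. Of these, 33 were bright enough to test (21 mitotic and 12 replication members), among 25801 tested features, 15253 of them with a gene name. Aurkb, the mitotic kinase Aurora B, and Ccne2, cyclin E2, were well above background on 1 array of 16, and Cenpf, a kinetochore protein, on 0 arrays. Those 3 genes were left untested.

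RNA came from whole livers of mice fed a high-fat diet, all male and ApoE knockout, with a labelled age of 8 weeks and livers taken after 8 weeks. All mice lacked ApoE, so both groups share that deletion and the diet. Of the 16 samples, 8 had received a control inhibitor (ctrl-inh) and 8 an inhibitor directed against the microRNA miR-185 (miR-185-inh). Per the series design the antisense RNA was delivered by a lentivirus, and its promoter is not named in these labels. The series addresses bile acid metabolism, and no label names cell division as an aim. Levels are log2 intensities relative to the 75th percentile of each array, so a level below 0 is common and levels of different genes cannot be ranked.

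A cell that divides first licenses its replication origins with the MCM helicase and raises cyclin E, nucleotide-synthesis enzymes and the clamp PCNA. Later it makes cyclins A and B, the kinases and motors of mitosis and the ubiquitin ligase parts that end it. The first wave is known to depend on E2F factors. The second depends on the MuvB, B-MYB and FOXM1 complexes, which act through a CHR element and CCAAT boxes. In adult liver most hepatocytes are quiescent, and endothelial cells, macrophages and infiltrating leukocytes can also be in cycle. In RNA from a whole organ, fewer dividing cells and less of a transcript per cell cannot be told apart.

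Promoters of some members are shown first, because the mitotic and replication members are set against each other throughout. Sequences are RefSeq's, build GRCm38.p6, 5′ to 3′ on the strand of the gene, and give the 160 bases before the annotated start. Capitals mark a CHR (TTTGAA), the letters CCAAT of a box of that name, or an E2F motif (TTCCCGC in its usual form, with TTCGCGC, then TTGGCGC and also TTGCCGC), on either strand. The first stretches are from mitotic members. Ccnb1 and Plk1 were chosen because they were called between the groups. Top2a, Bub1 and Ube2c had the smallest limma p within slide row 1 among the other mitotic members with a sequence available. Tpx2 and Ccna2, which ranked ahead of Bub1 and Ube2c by that p, had no sequence in the RefSeq table.
Ccnb1 (chr13:100786487-100786646, minus strand): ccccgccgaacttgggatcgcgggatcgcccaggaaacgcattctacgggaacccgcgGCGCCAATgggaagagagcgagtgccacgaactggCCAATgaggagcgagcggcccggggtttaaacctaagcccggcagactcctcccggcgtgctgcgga
Plk1 (chr7:122159275-122159434, plus strand): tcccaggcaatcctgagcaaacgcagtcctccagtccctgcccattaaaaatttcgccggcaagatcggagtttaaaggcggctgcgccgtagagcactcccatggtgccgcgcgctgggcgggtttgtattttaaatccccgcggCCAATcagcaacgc
Top2a (chr11:99024190-99024349, minus strand): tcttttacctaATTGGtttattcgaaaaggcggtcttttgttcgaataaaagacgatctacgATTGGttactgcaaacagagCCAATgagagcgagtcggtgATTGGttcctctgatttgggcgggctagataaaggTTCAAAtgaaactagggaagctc
Bub1 (chr2:127831860-127832019, minus strand): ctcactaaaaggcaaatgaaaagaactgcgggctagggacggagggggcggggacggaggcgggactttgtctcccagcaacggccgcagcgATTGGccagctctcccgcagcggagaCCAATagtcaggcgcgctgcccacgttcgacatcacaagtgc
Ube2c (chr2:164769769-164769928, plus strand): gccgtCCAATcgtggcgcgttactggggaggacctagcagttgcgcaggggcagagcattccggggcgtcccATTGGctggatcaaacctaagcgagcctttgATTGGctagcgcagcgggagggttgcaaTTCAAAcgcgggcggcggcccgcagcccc
The others are from replication members, of which Mcm6 and Mcm5 encode subunits of the MCM helicase and Ccne1 encodes cyclin E1.
Ccne1 (chr7:38107491-38107650, minus strand): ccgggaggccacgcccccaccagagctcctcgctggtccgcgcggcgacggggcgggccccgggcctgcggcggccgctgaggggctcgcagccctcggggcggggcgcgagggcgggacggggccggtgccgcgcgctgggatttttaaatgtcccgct
Mcm6 (chr1:128359706-128359865, minus strand): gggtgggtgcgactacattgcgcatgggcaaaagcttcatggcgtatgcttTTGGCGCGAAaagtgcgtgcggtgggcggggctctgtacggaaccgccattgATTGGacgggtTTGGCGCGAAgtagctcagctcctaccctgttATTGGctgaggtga
Mcm5 (chr8:75109349-75109508, plus strand): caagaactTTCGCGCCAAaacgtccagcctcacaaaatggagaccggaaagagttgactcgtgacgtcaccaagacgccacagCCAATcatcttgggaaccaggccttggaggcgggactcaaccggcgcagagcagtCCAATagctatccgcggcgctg
In Ccnb1 the E2F motif overlaps a CCAAT box, and in Mcm6 and Mcm5 E2F motifs of both strands overlap each other. A CHR of Plk1 lies 30 bases after the start, outside the stretch shown.

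The search covered 250 bases before to 50 after the start, and 29 of the 36 members had such a window in the RefSeq table. A CHR was present in 13 of 18 mitotic members and 1 of 11 replication members, against 17.9% of all 32851 windows of that length. A CCAAT box was present in 16 of 18 and 7 of 11, against 37.4% of all windows. An E2F motif was present in 3 of 18 and 5 of 11, against 9.57%. The same letters in a wider list of genes gave a CHR in 27 of 39 other mitotic genes and 9 of 35 other replication genes. These are counts of letters in a window, with no test of binding. A listed gene counted if any of its windows held the motif, while the percentages are of single windows, so the measures differ.

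Slide and scan coincide with the treatment, 1 slide for each group, and the 3 cannot be told apart. Each slide held its arrays in 2 rows. Row 1 held ctrl-inh mice 1, 2, 3 and 4 and miR-185-inh mice 1, 3, 6 and 7, and row 2 held ctrl-inh mice 8, 9, 11 and 12 and miR-185-inh mice 8, 9, 10 and 12. A row therefore stands for different mice as well as a different place on the slide, and these cannot be told apart either. No label says outright that the samples are separate animals, so a p-value here covers sample-to-sample spread, part of which may be technical. Each array had 59305 non-control spots. The share well above background was 68.6% to 74.8% on the 4 ctrl-inh arrays of row 1 and 58.7% to 67.1% on the other 12. All 8 hepatocyte markers checked, Alb and Hnf4a among them, were well above background on all 16 arrays. Over all features limma called 320 upward and 903 downward, miR-185-inh against ctrl-inh, a split that became 390 and 414 with quantile normalization, 558 and 608 with normexp background correction, and 306 and 1545 with the percentile taken over detected probes.

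The mitotic members were high in the 4 ctrl-inh livers of row 1 and lower in the other 12 livers of both groups, and the replication members did not follow that pattern. The mean level over the 21 tested mitotic members was -2.94 to -2.62 in ctrl-inh row 1. It was -3.86 to -3.12 in ctrl-inh row 2, -3.64 to -3.28 in miR-185-inh row 1 and -3.50 to -3.21 in miR-185-inh row 2. The first range does not overlap any of the others. The mean over the 12 replication members was -0.18 to -0.04 in ctrl-inh row 1, -0.35 to -0.19 in ctrl-inh row 2, -0.21 to -0.04 in miR-185-inh row 1 and -0.19 to 0.22 in miR-185-inh row 2. These ranges overlapped, apart from that of ctrl-inh row 2, which lay below ctrl-inh row 1.

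**Figure D1:**
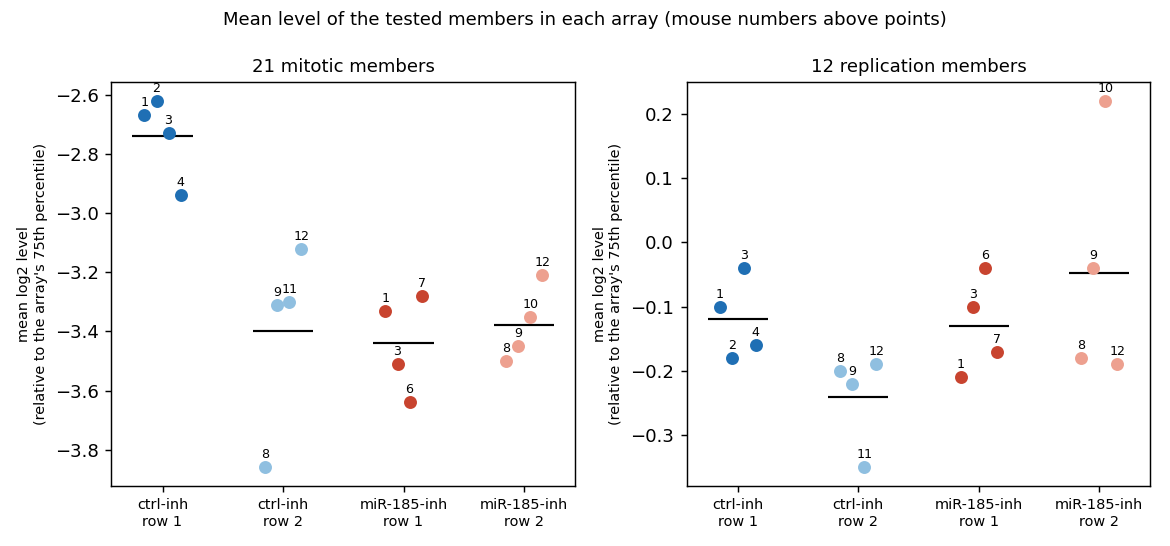
Mean log2 level (relative to each array's 75th percentile) over the 21 tested mitotic members and the 12 tested replication members, 1 point per liver, by treatment group and slide row. The 4 ctrl-inh livers of row 1 lie at -2.94 to -2.62 for the mitotic members, above all 12 other livers.

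**Figure D2:**
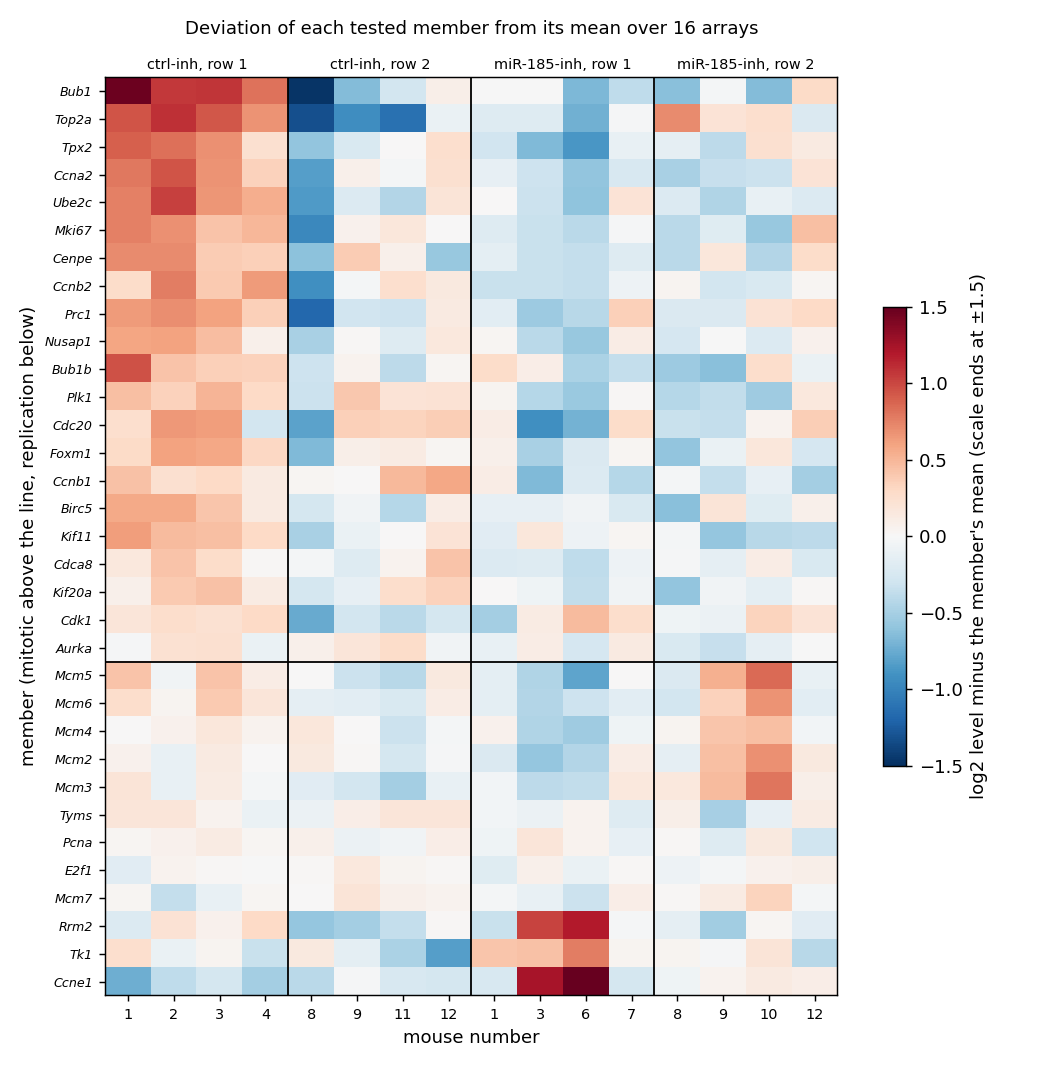
Level of each tested member in each of the 16 livers as a difference in log2 units from that gene's mean over all livers, with mitotic members above and replication members below. Most mitotic rows are high in ctrl-inh mice 1, 2, 3 and 4, while Ccne1 and Rrm2 are high in miR-185-inh mice 3 and 6 and Mcm2 to Mcm6 in miR-185-inh mice 9 and 10.

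Across all 16 livers, cyclin B1 and Polo-like kinase 1 transcripts fell in the miR-185-inh group. Limma called these 2 of the 33 members at an adjusted p under 0.05 and 0 higher (4.74% of all features were called, and 3.5% were called lower). That count is close to the share of all features called. With slide row and column as covariates limma called 3 members, Ccnb1, Plk1 and Tk1, the last of them higher, and 1438 of all features. At an unadjusted p under 0.05 there were 12 members of 33, against 20.3% of all features. Without ctrl-inh mouse 8, the lowest ctrl-inh liver in several of these genes, limma called 5 members and 932 of all features. The median difference, miR-185-inh minus ctrl-inh, was -0.36 over the mitotic members, 20 of 21 of them below 0, and -0.01 over the replication members, 6 of 12 below 0. Over all features the median was -0.03, with 58.0% below 0. Over the 11216 features in the mitotic members' range of mean signal it was -0.11, with 69.8% below 0. Without the 4 ctrl-inh arrays of row 1, left out after seeing the data, limma called 0 members and 979 of all features. The mitotic median then lay close to that of all features, which was -0.07.

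Ccnb1 encodes cyclin B1, which activates the kinase CDK1 at mitotic entry. Its level was -3.11, -3.31, -3.25 and -3.41 in ctrl-inh row 1 and -3.52, -3.54, -3.06 and -2.96 in ctrl-inh row 2. It was -3.43, -4.21, -3.75 and -3.97 in miR-185-inh row 1 and -3.58, -3.90, -3.67 and -4.06 in miR-185-inh row 2. Within each row all miR-185-inh livers lay below all ctrl-inh livers, and all 8 lay below the ctrl-inh mean. The group means were -3.27 ± 0.22 and -3.82 ± 0.26 (SD, n = 8 each), a difference of -0.55 (SE 0.12) or 1.47-fold, with a limma adjusted p of 0.0129. The two-sided exact permutation test over the 12870 splits of 8 against 8 gave p = 0.000622. The difference was -0.57 in row 1 and -0.53 in row 2, and no leave-one-out fit ended the call. Of 2 other Ccnb1 probes, a dim one well above background on 8 arrays differed by -1.25 and one well above background on 16 by -0.48 (exact permutation p = 0.143), the latter with -0.89 in row 1 and -0.06 in row 2. Without the 4 ctrl-inh arrays of row 1 the Ccnb1 difference was again -0.55, with a limma adjusted p of 0.0671, and with normexp it was -0.32 (adjusted p = 0.0672).

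Plk1 encodes Polo-like kinase 1, which acts in centrosome maturation and the exit from mitosis. It stood at -3.05, -3.15, -2.99 and -3.20 in ctrl-inh row 1, -3.82, -3.09, -3.29 and -3.28 in ctrl-inh row 2, -3.45, -3.93, -4.05 and -3.48 in miR-185-inh row 1 and -3.93, -3.87, -4.03 and -3.34 in miR-185-inh row 2. All 8 miR-185-inh livers lay below the ctrl-inh mean, and ctrl-inh mouse 8 overlapped the miR-185-inh range. The group means were -3.23 ± 0.26 and -3.76 ± 0.29 (SD, n = 8 each), a difference of -0.53 (SE 0.13) or 1.44-fold (limma adjusted p = 0.0290, exact permutation p = 0.00373). It was -0.63 in row 1 and -0.42 in row 2. Leaving out a single liver ended the call for mice 2 and 3 of ctrl-inh and mice 6, 8, 9 and 10 of miR-185-inh, with limma adjusted p between 0.0502 and 0.0568. Without the 4 ctrl-inh arrays of row 1 the difference was -0.39 (limma adjusted p = 0.190).

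**Figure D3:**
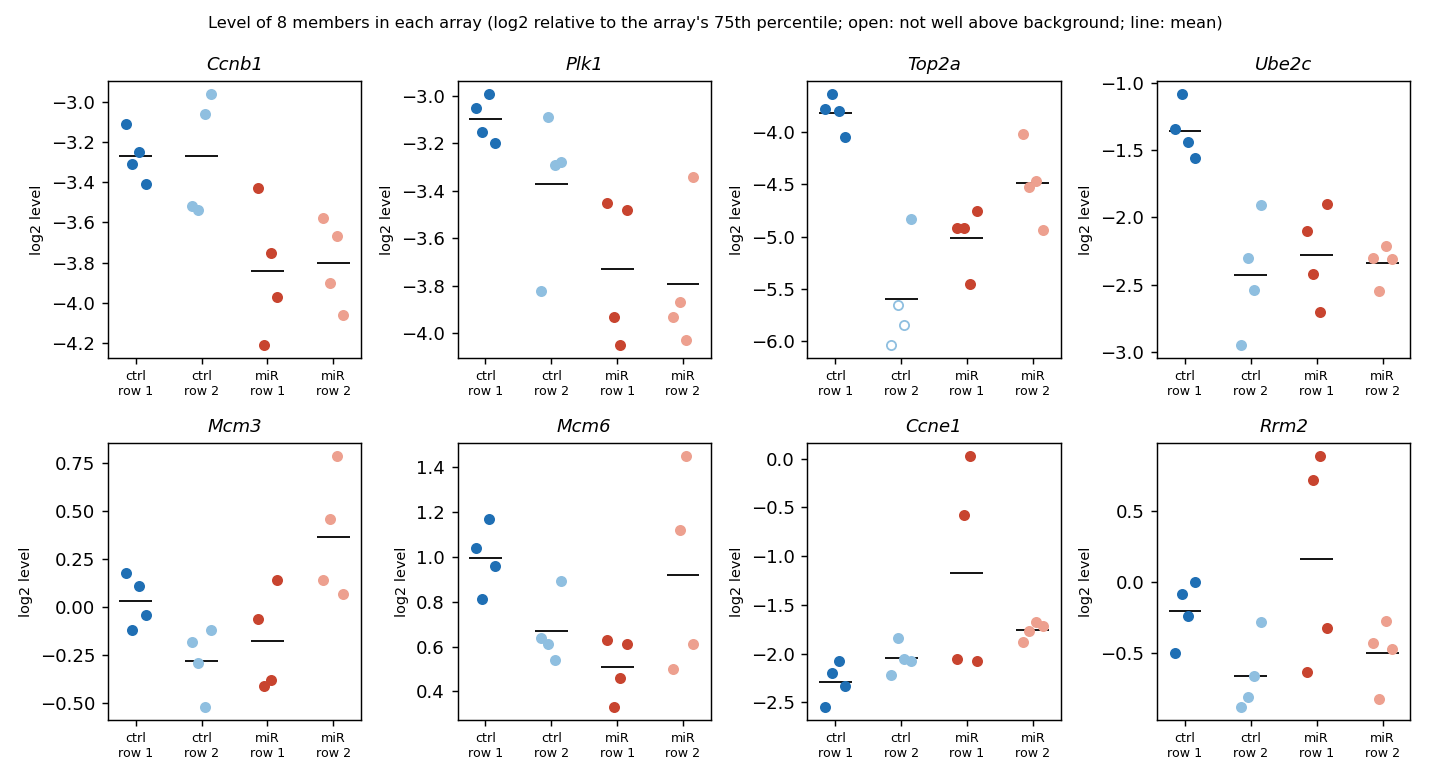
Log2 level (relative to each array's 75th percentile) of single members in each liver, 1 point per mouse, by treatment group and slide row. Ccnb1 is lower in miR-185-inh livers of both rows, whereas Top2a and Ube2c are high in ctrl-inh row 1 and Ccne1 is high in 2 livers of miR-185-inh row 1.

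Within row 1, all 21 mitotic members were lower in the miR-185-inh livers, with a median difference of -0.63, but none passed the adjustment. The range was -1.37 to -0.12. For 17 of 21 mitotic members every miR-185-inh liver of the row lay below every ctrl-inh liver, against 6.48% of all features. The same held for 1 of 12 replication members (Mcm6). The 17 include Bub1, which passed the filter of 8 of 16 arrays only through the ctrl-inh arrays of row 1, where it was high. Limma called 0 members in row 1, where 0.0116% of all features (3 of 25801) were called, and 22 members, 18 of them mitotic, had an unadjusted p under 0.05, against 17.5% of all features. Leaving out a single liver gave 4 calls without ctrl-inh mouse 8, 3 without miR-185-inh mouse 7, 2 without miR-185-inh mouse 12 and 1 without ctrl-inh mouse 12 or miR-185-inh mouse 1 or 10. All features gave 49, 172, 79, 19, 164 and 82 calls in these fits, in that order. The number of members called ran from 0 to 12 over the other alternatives: 5 with the percentile over detected probes, 11 with array weights (among them Ccne1, higher) and 12 with no filter on dim probes. The calls over all features rose from 3 to 474, 778 and 3682 under these settings. Over all features the row 1 median was 0.01, and in the mitotic members' signal range it was -0.09, with 66.2% of features below 0. The replication members had a median of -0.10, with 8 of 12 below 0.

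Tpx2, which encodes a spindle assembly factor that activates Aurora A, had the smallest p in row 1. Its level was -3.36, -3.42, -3.57 and -4.01 in the ctrl-inh livers and -4.54, -4.91, -5.12 and -4.36 in the miR-185-inh livers, a difference of -1.14 (SE 0.21) or 2.21-fold, with a limma adjusted p of 0.0508. In row 2 Tpx2 was -4.84, -4.48, -4.25 and -4.00 in ctrl-inh and -4.39, -4.64, -4.01 and -4.12 in miR-185-inh livers, and the groups overlapped there. Ccna2, encoding cyclin A2 of S phase and early mitosis, was -1.88, -1.73, -2.00 and -2.33 in ctrl-inh row 1 and -2.79, -2.98, -3.26 and -2.91 in miR-185-inh row 1. That row 1 difference was -1.00 (SE 0.21, limma adjusted p = 0.0636), without overlap, while in row 2 the ctrl-inh livers ran from -3.50 to -2.43 and the miR-185-inh livers from -3.16 to -2.47. Ccnb2, encoding cyclin B2, was -2.42, -1.93, -2.30 and -2.06 against -3.03, -3.03, -3.05 and -2.77, a difference of -0.79 (SE 0.20, limma adjusted p = 0.0799), and in row 2 the groups overlapped, at -3.61 to -2.44 and -2.97 to -2.65. In each of these genes the two-sided exact permutation p within row 1 was 0.0286, the smallest that 70 splits of 4 against 4 can give.

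Among the mitotic members, the largest row 1 differences were in Bub1, a spindle checkpoint kinase (-1.37, limma adjusted p = 0.0643), Top2a, the topoisomerase that disentangles sister chromatids (-1.20, adjusted p = 0.0547), Tpx2, Ccna2, and Ube2c, the ubiquitin-conjugating enzyme of the anaphase-promoting complex (-0.93, adjusted p = 0.0643). Mki67, the proliferation marker Ki-67, differed by -0.84, the kinetochore motor Cenpe by -0.80, the central spindle organiser Prc1 by -0.77 and the spindle protein Nusap1 by -0.64. The checkpoint gene Bub1b differed by -0.63, the transcription factor Foxm1 by -0.59, the passenger complex members Birc5 and Cdca8 by -0.56 and -0.44, and the kinesins Kif11 and Kif20a by -0.48 and -0.38. Those genes belong to different steps of mitosis and share the direction. The anaphase activator Cdc20 (-0.63), Cdk1 (-0.16) and the Aurora A gene Aurka (-0.12) overlapped between the groups, as did Nusap1. Where a gene had further probes above background on all 16 arrays, as Birc5, Mki67, Ube2c and Cdca8 did, those probes were also lower in row 1, by -0.33 to -0.96. The 3 Cdk1 probes disagreed in row 1, at -0.16, -0.24 and 0.15.

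Among ctrl-inh livers alone, mitotic transcripts were lower in row 2 than in row 1, a comparison on the same slide and scan that involves no inhibitor of miR-185. Limma called 6 of the 33 members lower, all mitotic (3.28% of all features were called, and 1.65% were called lower). Top2a lay 3.43-fold lower (-1.78, SE 0.24, adjusted p = 0.00533). Its probe was well above background on only 1 of the 4 ctrl-inh arrays of row 2, and that of Bub1 on 2. Both folds therefore rest on row 2 values near background. Bub1 also passed the filter of 8 of 16 arrays only through the ctrl-inh arrays of row 1, where it was high. Bub1 was 3.22-fold lower (-1.69, adjusted p = 0.0122), Ube2c 2.10-fold (-1.07, adjusted p = 0.0164), Prc1 1.98-fold (-0.99, adjusted p = 0.0422), Ccna2 1.76-fold (-0.82, adjusted p = 0.0496) and Kif11, a spindle motor, 1.47-fold (-0.56, adjusted p = 0.0495). Tpx2 and Cdk1 had adjusted p of 0.0501 and 0.0516. The median over the mitotic members was -0.66, with 20 of 21 below 0, against -0.09 over the replication members and 0.09 over all features, 32.8% of which were below 0.

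For 12 of 21 mitotic members every ctrl-inh liver of row 2 lay below every ctrl-inh liver of row 1, and for 0 of 12 replication members, against 5.29% of all features. For 8 of 21 (Ccnb2, Ccna2, Bub1, Bub1b, Kif11, Ube2c, Prc1 and Foxm1) the 4 ctrl-inh livers of row 1 lay above all 12 other livers, against 0.546% of all features. Ube2c was -1.34, -1.08, -1.44 and -1.56 in ctrl-inh row 1, and -2.95, -2.30, -2.54 and -1.91 in ctrl-inh row 2. It was -2.10, -2.42, -2.70 and -1.90 in miR-185-inh row 1 and -2.30, -2.55, -2.21 and -2.31 in miR-185-inh row 2. Only the first of the 4 sets stood apart for Ube2c. Bub1 showed the same order, with -3.95, -4.35, -4.34 and -4.60 in ctrl-inh row 1, -6.89, -6.07, -5.69 and -5.33 in ctrl-inh row 2, and -6.09 to -5.13 over the 8 miR-185-inh livers. The Bub1 probe was well above background on all 4 arrays of ctrl-inh row 1. In ctrl-inh row 2, miR-185-inh row 1 and miR-185-inh row 2 it was so on only 2, 3 and 1 of 4. Its lower levels therefore lie near background. Bub1 was tested only because of the ctrl-inh arrays of row 1, so its place in the counts of 12 and 8 adds no support. Prc1 was -2.95, -2.89, -2.99 and -3.23 in ctrl-inh row 1 and -4.77 to -3.46 in ctrl-inh row 2, with -4.14 to -3.23 over the 8 miR-185-inh livers. Kif11 was -3.32, -3.47, -3.49 and -3.65 in ctrl-inh row 1, -4.43 to -3.74 in ctrl-inh row 2 and -4.53 to -3.78 in miR-185-inh livers.

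Within miR-185-inh livers the rows gave a different picture. Limma called 0 members between row 2 and row 1, where 0% of all features were called, and 9 members had an unadjusted p under 0.05, of which 2 were mitotic and 7 replication members, against 16.9% of all features. The median was 0.04 over the mitotic and 0.13 over the replication members. The calls within ctrl-inh livers depended on single mice: 2 members remained without ctrl-inh mouse 1 or 11 and 3 without ctrl-inh mouse 2, 3, 4 or 8. All features gave 133, 151, 285, 477, 228 and 716 calls in these fits, in that order, against 845. Top2a and Bub1 stayed called in each of these fits, and Ube2c ended only without mouse 1 or 11 (limma adjusted p = 0.0546 and 0.0527). Ccna2 and Kif11 also ended without most single miR-185-inh mice (adjusted p at most 0.0593 there), and Prc1 ended without miR-185-inh mouse 1 (0.0506). All 3 also ended when any single ctrl-inh mouse except 12 was left out, with adjusted p up to 0.140.

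**Figure D4:**
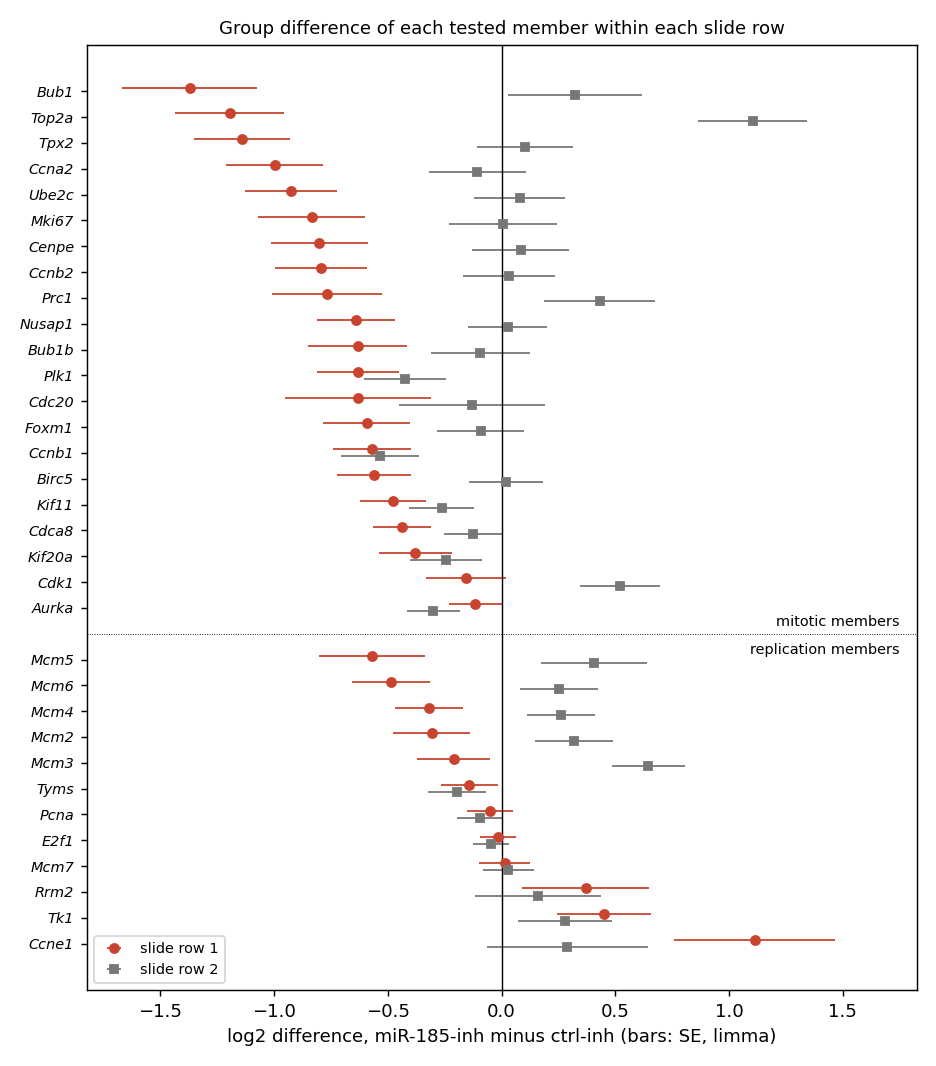
Log2 difference, miR-185-inh minus ctrl-inh, of each tested member within slide row 1 and within slide row 2, with bars of 1 SE from limma. All 21 mitotic members lie below 0 in row 1 (median -0.63) and scatter around 0 in row 2 (median 0.01).

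Within row 2 the mitotic members showed no common direction, and Top2a and Mcm3 rose. The mitotic median was 0.01, with 11 of 21 above 0, and it lay between -0.07 and 0.03 over the scaling, filter and weighting alternatives and between -0.16 and 0.06 when 1 liver was left out. The replication median was 0.26, with 9 of 12 above 0, and the median of all features was -0.07. Limma called these 2 of the 33 members, both higher (5.79% of all features were called, and 1.72% were called higher). The count of 2 in 33 is close to the share of all features called in either direction. Ccnb1 was the only mitotic member with all miR-185-inh livers below all ctrl-inh livers (10% of all features), while Cdk1 and Mcm3 had all miR-185-inh livers above (3.96% of all features). Cdk1, the kinase that cyclin B activates, differed by 0.52 in row 2 (limma adjusted p = 0.0876), and its 2 other probes by 0.11 and 0.52.

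Among the 33 members tested, Top2a gave the largest contrast between the rows. Its level was -3.78, -3.63, -3.80 and -4.05 in ctrl-inh row 1, -6.04, -5.66, -5.85 and -4.83 in ctrl-inh row 2, -4.92, -4.92, -5.45 and -4.75 in miR-185-inh row 1, and -4.02, -4.52, -4.47 and -4.94 in miR-185-inh row 2. The 2 ctrl-inh sets bracket the miR-185-inh livers, from above in row 1 and mostly from below in row 2. The probe was well above background on 1 of the 4 ctrl-inh arrays of row 2 and on all 12 others. The difference was -1.20 in row 1 and 1.10 in row 2 (SE 0.24 each), 2.15-fold higher in row 2 with a limma adjusted p of 0.0204. The exact permutation p was 0.0286 in row 1 and 0.0571 in row 2, where the groups overlapped. The contrast between the rows was -2.30 (SE 0.34, limma adjusted p = 0.0228), and Top2a was the only 1 of the 33 members called there (0.376% of all features were called and 0.353% were called lower, and 17 members had an unadjusted p under 0.05, against 14.8% of all features). Over the whole group Top2a differed by -0.05. The row 2 call ended without ctrl-inh mouse 8 or 11 (limma adjusted p = 0.0509 and 0.0618). The contrast between rows was no longer called when mouse 1, 2 or 11 of ctrl-inh, or mouse 9 of miR-185-inh, was left out (adjusted p = 0.0508 to 0.0585). Without miR-185-inh mouse 12, Mcm3 was called there too, making 2, while 453 of all features were called. With normexp the contrast between rows was -1.03 (adjusted p = 0.0668), and the row 2 difference was 0.42 (adjusted p = 0.110).

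The replication members held 3 patterns. In the helicase genes Mcm2 to Mcm6, miR-185-inh mice 9 and 10 of row 2 had the highest levels of all 16 livers except in Mcm6, and miR-185-inh mice 3 and 6 of row 1 the lowest of their group, a pattern picked out after the values were seen. Mcm3 was 0.18, -0.12, 0.11 and -0.04 in ctrl-inh row 1, -0.18, -0.29, -0.52 and -0.12 in ctrl-inh row 2, -0.06, -0.41, -0.38 and 0.14 in miR-185-inh row 1, and 0.14, 0.46, 0.79 and 0.07 in miR-185-inh row 2. In row 2 all miR-185-inh livers lay above all ctrl-inh livers, and in row 1 the groups overlapped. The row 2 difference was 0.64 (SE 0.16) or 1.56-fold, with a limma adjusted p of 0.0341. That call ended without any 1 of the 4 ctrl-inh mice of row 2 or miR-185-inh mouse 9 or 10, with adjusted p from 0.0532 to 0.0996 and a difference of 0.50 without mouse 10.

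Mcm5 was -1.48, -1.96, -1.48 and -1.80 in ctrl-inh row 1, -1.90, -2.23, -2.32 and -1.76 in ctrl-inh row 2, -2.05, -2.36, -2.70 and -1.90 in miR-185-inh row 1, and -2.13, -1.38, -1.06 and -2.02 in miR-185-inh row 2. Mcm6 was 1.04, 0.81, 1.17 and 0.96, then 0.64, 0.61, 0.54 and 0.89, then 0.63, 0.33, 0.46 and 0.61, and 0.50, 1.12, 1.45 and 0.61 in the same order of sets. In row 1 the differences were -0.57 for Mcm5 and -0.49 for Mcm6 (limma adjusted p = 0.224 and 0.170), and in row 2 they were 0.41 and 0.25. Mcm2 ran from -0.33 to -0.08 in ctrl-inh row 1, -0.48 to -0.07 in ctrl-inh row 2, -0.80 to -0.11 in miR-185-inh row 1 and -0.35 to 0.47 in miR-185-inh row 2. Mcm4 ran from 0.07 to 0.23, -0.26 to 0.23, -0.47 to 0.12 and 0.02 to 0.51 in those sets. Mcm7, a further helicase subunit, did not share the pattern and differed by 0.01 in row 1 and 0.03 in row 2.

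Cyclin E1, which drives entry into S phase with CDK2, was higher in 2 miR-185-inh livers than anywhere else. Ccne1 was -2.55, -2.20, -2.08 and -2.33 in ctrl-inh row 1 and -2.22, -1.84, -2.06 and -2.08 in ctrl-inh row 2. It was -2.06, -0.58, 0.03 and -2.08 in miR-185-inh row 1, where the high values belong to mice 3 and 6, and -1.88, -1.77, -1.68 and -1.72 in miR-185-inh row 2. All 8 miR-185-inh livers lay above the ctrl-inh mean, and the groups overlapped. The difference was 0.70 (SE 0.26) or 1.63-fold, which did not pass the adjustment in limma (adjusted p = 0.129) and had an exact permutation p of 0.00373. Without mice 3 and 6 the difference was 0.30 (limma adjusted p = 0.111). A dimmer Ccne1 probe, well above background on 7 arrays, differed by 0.39 (exact permutation p = 0.295).

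Tk1, encoding thymidine kinase of the salvage pathway, was 1.80, 1.45, 1.59 and 1.22 in ctrl-inh row 1, 1.70, 1.40, 1.08 and 0.72 in ctrl-inh row 2, 1.97, 1.99, 2.32 and 1.59 in miR-185-inh row 1 and 1.59, 1.53, 1.75 and 1.13 in miR-185-inh row 2. The highest levels were those of miR-185-inh mice 6, 3 and 1, and the group difference of 0.36 had a limma adjusted p of 0.230. Tk1 was called higher only with slide row and column as covariates, among the fits of that comparison. Rrm2, the small subunit of ribonucleotide reductase, is described after its values were seen. MiR-185-inh mice 3 and 6 had Rrm2 levels of 0.72 and 0.89, above the -0.88 to 0.00 of the other 14 livers. Its group difference was 0.26 (limma adjusted p = 0.566). The remaining replication members differed little: Pcna, the replication clamp, by -0.07, Tyms, thymidylate synthase, by -0.17, and the transcription factor gene E2f1 by -0.03, each with a limma adjusted p of at least 0.280.

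A wider set of cell cycle genes was counted in the same comparisons. Of 39 tested other mitotic genes, limma called 2 lower and 0 higher between the groups: Smc2, a condensin subunit (-0.51, adjusted p = 0.0259), and Cdca2, a chromatin-bound phosphatase regulator (-0.44, adjusted p = 0.0266). That is close to the 4.74% of all features called and the 3.5% called lower. Their row 1 median was -0.28, with 33 of 39 below 0, and their row 2 median -0.02. The contrast between rows was called lower for Kif23, a central spindle kinesin (-1.51, adjusted p = 0.0245), and Melk, a mitotic kinase (-1.89, adjusted p = 0.0482). In that contrast 0.376% of all features were called and 0.353% were called lower. Among ctrl-inh livers 4 were called lower in row 2 (Kif23, Melk, Anln and Kif4) and 1 higher (Cks1b, 0.55). There 3.28% of all features were called and 1.65% were called lower. The row 1 median of the other mitotic genes had the sign of the mitotic members' median and was smaller in size.

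Of 41 tested other replication genes, limma called E2f2, an activating E2F factor, lower (-0.54, adjusted p = 0.0252) and Gmnn, the licensing inhibitor geminin, higher (0.53, adjusted p = 0.0313) between the groups, where 4.74% of all features were called. In row 2 it called Uhrf1 (0.72) and Pole2 (0.67) higher and 0 lower, where 5.79% of all features were called and 1.72% were called higher. Among ctrl-inh livers it called Pole2 lower in row 2 (-0.66, adjusted p = 0.0392) and 0 higher, where 1.65% of all features were called lower. For 7 of the 41 every ctrl-inh liver of row 2 lay below every ctrl-inh liver of row 1, against 5.29% of all features. The medians were -0.05 in row 1, 0.06 in row 2 and -0.11 between the ctrl-inh rows. Of 33 tested genes of cell cycle entry and its brakes, such as cyclin D1 and the inhibitor p21, limma called 0 in any of the 6 comparisons. Between the groups 8 of these had an unadjusted p under 0.05, against 20.3% of all features, and their median was 0.11.

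Markers of several non-hepatocyte cell types also had negative median differences in row 1 and between the ctrl-inh rows. Mean levels of the 8 endothelial markers were 1.42 to 1.54 in ctrl-inh row 1 and 0.54 to 1.36 in the other 12 livers, and these ranges do not overlap. The median differences of the endothelial list were -0.36 in row 1, 0.47 in row 2 and -0.62 between the ctrl-inh rows. In the last comparison Cdh5 and Lyve1 were called lower, as were 1.65% of all features. For 11 of 12 Kupffer cell and macrophage markers, those tested, the medians were -0.40, 0.09 and -0.32, with mean levels of 3.14 to 3.35 in ctrl-inh row 1 and 2.43 to 3.32 elsewhere. For 11 of 12 T and NK cell markers they were -0.66, 0.45 and -0.57, with mean levels of -2.02 to -1.39 and -2.49 to -0.80. Among miR-185-inh livers of row 2, the T and NK mean was -0.80 in mouse 10 alone. Mice 8, 9 and 12 stood at -2.18, -2.10 and -2.16, within the -2.36 to -1.90 of ctrl-inh row 2. For the 8 stellate cell and fibroblast markers the medians were -0.28, 0.41 and -0.41, with mean levels of 0.79 to 1.24 and 0.18 to 1.27. The 8 hepatocyte markers went the other way, at 0.09, -0.22 and 0.18, with mean levels of 5.11 to 5.32 and 5.03 to 5.60.

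All 11 tested granulocyte markers differed downward in both rows, with medians of -1.24 and -0.66 and one of 0.37 between the ctrl-inh rows. Of these markers, Ltf and Ngp were called lower between the groups, as were 3.5% of all features. Their mean levels were -2.17 to -0.91 in ctrl-inh row 1 and -3.39 to -0.14 elsewhere, and Ly6g was too dim to test. The B cell and plasma cell list had medians of -0.23, -0.12 and -0.28, the bile duct list -0.07, -0.10 and 0.21, and the 6 erythroid markers tested 0.10, 0.08 and -0.05. The endothelial, macrophage, T cell and stellate lists and the share of spots above background moved with the mitotic members in row 1 and between the ctrl-inh rows, and their part in the result was not tested. In row 2 the endothelial, macrophage, T cell and stellate medians were 0.47, 0.09, 0.45 and 0.41, where the mitotic median was 0.01.

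**Figure D5:**
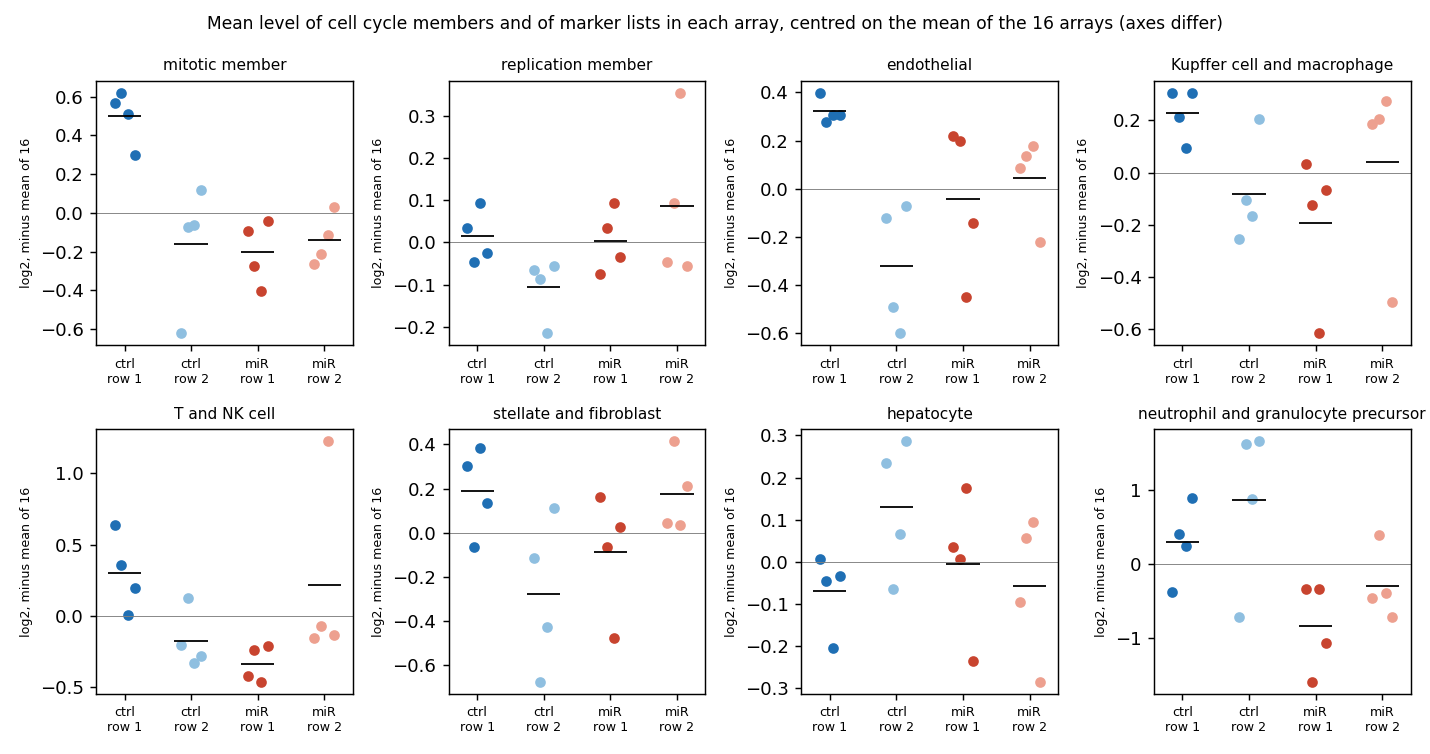
Mean log2 level of the mitotic and replication members and of selected marker lists in each liver, less each list's mean over all livers. Points are mice, by treatment group and slide row. The marker lists drawn are endothelial, macrophage, T and NK cell, stellate, hepatocyte and granulocyte. The endothelial list is highest in the 4 ctrl-inh livers of row 1 (1.42 to 1.54 before centring), as the mitotic members are. The granulocyte list is lower on average in miR-185-inh livers.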

How the data were processed

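Liver RNA of 16 samples was hybridised to 1-colour Agilent mouse arrays. The deposited scanner files hold a background-subtracted intensity per spot, from Feature Extraction 11.5.1.1 per the file headers, while the submitters' processing notes name version 9.1. The authors' value table holds log2 values: each column was log2 of the processed intensity less 1 constant, whose origin is not stated (column medians -1.30 to -1.22). Genes were not centred in it.

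Log2 intensities were scaled to the 75th percentile of each array's non-control spots, outlier spots were left out and spots of a probe averaged. Probes well above background on at least 8 of 16 arrays were kept, and the brightest probe stood for a gene. Names came from RefSeq through accessions. Probe coordinates, on another build, were not used. Limma 3.58.1 in R 4.3.3 tested the group difference and, in a model with a mean for each group and slide row, the row contrasts, two-sided, calling at 0.05 after Benjamini-Hochberg adjustment across the 25801 features. The scripts were checked on simulated data. Members and lists were chosen with earlier results of these data known. Named were the members called in any comparison, 6 mitotic and 6 replication members by row 1 p, and called genes of the other lists.

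Normexp (offset 50) was run on the median spot signal. Mouse numbers shared by both groups (1, 3, 8, 9 and 12) did not pair the samples.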

Additional observations from a re-analysis of the deposited data

Results flagged for a closer look

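Most of the values that stood apart belong to ctrl-inh mouse 8, in row 2 of its slide, which was the lowest of the 8 ctrl-inh livers by a wide gap. Its Ccnb2 level was -3.61 against -2.72 to -1.93 in the other 7. Its Plk1 level was -3.82 against -3.29 to -2.99, its Mki67 level -2.54 against -1.57 to -0.81, and its Foxm1 level -4.34 against -3.65 to -3.07. Without this liver limma called 5 members between the groups (Ccna2, Ccnb1, Ccnb2, Mki67 and Plk1) in place of 2, and 932 of all features in place of 1223. The Mcm4 level of ctrl-inh mouse 11 was -0.26 against 0.03 to 0.23 in the other ctrl-inh livers. The mean of the replication members was 0.22 in miR-185-inh mouse 10 against -0.21 to -0.04 in the others. Of 70 sets of values examined 6 had such a gap, and chance gives about 1 in 20.

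The difference between the groups in Top2a was not the same in the 2 slide rows: the contrast was -2.30 in log2 units by limma's test of the difference itself.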

How the results depend on the processing

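No result changed direction past the threshold. Between the groups, the 2 calls became 1 with normexp (Cdca8), quantile normalization (Ccnb1), the mean of probes (Plk1) or without miR-185-inh mice 3 and 6 (Ccnb1), and 0 without the 4 ctrl-inh arrays of row 1, both sets left out after seeing the data. The 1223 calls over all features became 1166, 804, 1187, 1215 and 979 in these fits. A replicate block over the 5 shared mouse numbers gave 0 calls, also over all features. Correlations of same-numbered samples were 0.0951, 0.0818, 0.000527, 0.108 and -0.126, and 1 of 5 samples correlated best with its own number. In row 1 the 0 calls became 3 with normexp, 5 with the percentile over detected probes, 1 with the authors' table, 12 with no filter, 1 with trend and robust eBayes and 11 with array weights. The 3 calls over all features became 300, 474, 60, 3682, 58 and 778 there. In row 2 the 2 calls became 1 with no filter or with detection on all 16 arrays, and 0 when only that row was fitted. All features gave 910, 1200 and 474 calls in these fits, against 1493. The difference between rows, 1 call, gave 0 with normexp, 0 with detection on all 16 arrays, 0 without mice 3 and 6, 3 with the percentile over detected probes and 4 with no filter. The 97 calls over all features became 32, 115, 0, 424 and 2366 in that order. The 6 calls between ctrl-inh rows became 3 with the authors' table, 14 with no filter (1 of them, Cenpf, higher) and 15 with array weights. All features gave 696, 6112 and 2923 calls there, against 845. The mitotic median between groups moved from -0.36 to -0.05 without the 4 ctrl-inh arrays of row 1, where the median of all features was -0.07. The replication median moved to 0.10 without mice 3 and 6, and the mitotic median between ctrl-inh rows to -0.40 with normexp. Leaving out 1 mouse gave 1 to 5 calls between groups, 0 to 4 in row 1, 0 to 3 in row 2, 0 to 2 for the difference between rows and 2 to 7 between ctrl-inh rows, and the row 2 replication median ran from 0.13 to 0.31. The cause of these changes was not tested. Aurkb, Ccne2 and Cenpf lay too near background to measure, as did Bub1 and Top2a on some arrays.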
